A study of Mus musculus with 24 samples.

Results

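The genes of voltage-gated ion channels and their relatives were followed in mouse cells that differentiated from embryonic stem cells (ESCs) to neurons, in wild-type (WT) cells and in cells with a slowly elongating RNA polymerase II. Members were chosen by symbol, as genes for sodium channel alpha and beta subunits (Scn), potassium channel subunits (Kcn), calcium channel subunits (Cacna1, Cacna2d, Cacnb and Cacng) and the hyperpolarisation-activated Hcn channels. Of 131 rows with such a symbol, 107 reached 1 CPM, with counts scaled to the library total, in at least 3 of the 24 samples and are described here. They were 107 of 14795 genes at that level and of 21553 genes with counts. The rule used no measured difference between groups, but it was set with earlier results of these data known. The symbol rule takes in 27 members of the inward rectifier, two-pore and calcium- or sodium-activated classes, whose channels are not gated by voltage alone. The level was reached in samples of both genotypes by 97 members and in 1 genotype at more than 1 stage by Kcng3. For 9 members it was reached in 1 group only (among them Kcna4, Kcne3, Kcne4, Kcnmb1, Kcnmb2, Kcns1, Kcnv1 and Scn7a), so that a difference involving that group had to appear. Kcnh8 is present as 2 rows with 1 symbol (ENSMUSG00000035580 and ENSMUSG00000073383), between which reads may have been split, and both are uncertain.

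All cells were of the E14 ESC line. The slow/slow cells are homozygous for the Polr2a allele R749H, an arginine-to-histidine substitution in the catalytic subunit of RNA polymerase II that slows elongation. Per the study's methods, the allele had been introduced by 2 rounds of targeting, the drug resistance cassette had been excised with Flp, and more slow/slow cells died when differentiation was started from sparse plating. Each genotype was sampled as ESCs in 2i medium, as neural progenitor cells (NPCs) at day 7, as bead-purified cells positive for polysialylated NCAM (PSA-NCAM+ cells) at day 10, and as neurons that were replated at day 7 and grown for 14 more days. There were 3 replicates in each of the 8 groups, from separate differentiation experiments per the methods, and 32974432 to 104466886 gene counts per library. Counts of Polr2a do not show the substitution, so genotype was taken from the labels. Pluripotency markers summed to 5013 to 5734 CPM in the 6 ESC libraries and to 75.5 to 127 CPM in the 6 neuron libraries, and neuron markers summed to 1671 to 3080 CPM in the latter. Replicate 1 of both genotypes stood apart among the PSA-NCAM+ cells, as shown for single genes below.

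The alpha subunits of sodium and calcium channels and the potassium channel subunits form the ion-conducting pores that open as the membrane potential changes. Sodium channels carry the upstroke of the action potential, potassium channels repolarise the membrane and set the resting potential, and calcium channels couple electrical activity to transmitter release and signalling. Accessory subunits (Scn beta, Cacnb, Cacna2d, Cacng, Kcnab and Kcne) alter trafficking and gating of the pores. Many of the genes are long and are switched on as neurons mature.

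Counts on the 107 genes made up a small and growing share of each library. The share was between 0.0342% and 0.0372% in the 6 ESC libraries, and the genotypes overlapped. In NPCs it was 0.0736%, 0.0781% and 0.0743% in WT and 0.0600%, 0.0596% and 0.0594% in slow/slow cells. In PSA-NCAM+ cells it was 0.0709%, 0.0610% and 0.0656% in WT and 0.0589%, 0.0568% and 0.0602% in slow/slow cells. In neurons the WT libraries held 0.295%, 0.277% and 0.273% and the slow/slow libraries 0.198%, 0.196% and 0.199%. The slow/slow libraries lay below the WT libraries at each stage after ESCs. A share weighs genes by their counts. In NPCs Cacnb3 had a mean of 148.3 CPM in WT against 62.8 CPM in slow/slow cells, while the median log2 difference of the members was -0.003. In bulk samples, fewer cells of a type and less RNA per cell cannot be told apart, and this holds for every difference below.

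**Figure D1:**
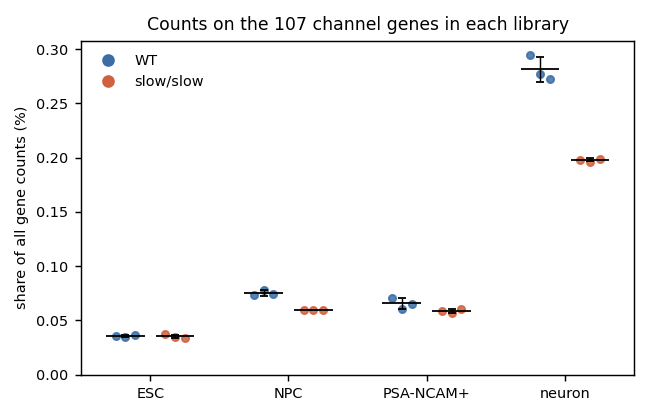
Share of all gene counts (%, vertical axis) that fell on the 107 channel genes, by stage and genotype, with 1 point per library and the mean and SD of the 3 replicates as bars. The WT neurons sit at 0.273% to 0.295% and the slow/slow neurons at 0.196% to 0.199%.

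The channel genes rose over differentiation in both genotypes. Between WT ESCs and WT neurons, 88 of the 107 members were higher in neurons and 11 were lower at a false discovery rate (FDR) under 0.05, against 43.4% of the 16627 genes tested that were higher and 39.4% that were lower, and the median log2 difference of the members was 3.46. Between slow/slow ESCs and slow/slow neurons, 84 were higher and 11 lower (44.0% and 38.4% of all genes), with a median of 3.94. Most of the increase came after the progenitor stage. Between ESCs and NPCs, 60 members rose and 13 fell in WT (34.0% and 31.6% of all genes), with a median of 1.13, and 68 rose and 13 fell in slow/slow cells (33.9% and 28.4% of all genes), with a median of 1.56. Between ESCs and PSA-NCAM+ cells, 60 rose and 15 fell in WT (37.6% and 33.6% of all genes), with a median of 1.42, and 72 rose and 13 fell in slow/slow cells (39.2% and 34.2% of all genes), with a median of 1.88. The 3 contrasts of a genotype share its ESC samples. Members near absent from ESCs passed the filter through later stages, so part of these rises had to appear.

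The largest rises were of genes near absent from ESCs. A gene that passed the filter only through its neuron samples had to show such a rise, which is then a description. In WT cells, Kcnk9, a two-pore channel of the leak current, had 0 counts in the 3 ESC libraries and 6230 in the 3 neuron libraries, which makes it at least 1400-fold higher, with 3 counts over the group as the floor. Kcnh8 (ENSMUSG00000073383), of the EAG family, had 0 and 917 counts and was at least 207-fold higher. Cacng2 (stargazin, which traffics AMPA receptors) rose from 0.0546 CPM to 64.0 CPM, a log2 difference of 10.1 ± 0.51 (SE; edgeR adjusted p = 1.79e-13). In slow/slow cells the largest fitted rises were those of Kcnk10, Kcne4 and Cacng3. Kcnk10, another two-pore channel, had 1 count in ESCs and 3076 in neurons, a ratio of 2100 with an exact 95% counting interval of 376 to 82900. Kcne4 and Cacng3 had 0 counts in slow/slow ESCs and were at least 126-fold and at least 76.8-fold higher in neurons. Kcne4 reached 1 CPM in slow/slow neurons only, so that its rise had to appear. The falls were of genes that ESCs express. Kcnk5, an acid-sensitive two-pore channel, fell from 67.1 to 6.28 CPM in WT (log2 difference -3.42 ± 0.23, edgeR adjusted p = 2.48e-11). Kcnh3 fell from 14.3 to 1.45 CPM in WT and from 21.5 to 0.747 CPM in slow/slow cells. Kcns3, a silent subunit that modifies Kv2 channels, fell from 7.54 to 1.02 CPM in WT and from 16.2 to 0.941 CPM in slow/slow cells. Cacna1s, the L-type subunit of skeletal muscle, fell from 13.0 to 0.386 CPM in slow/slow cells.

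At the intermediate stages, Kcnt1, a sodium-activated potassium channel, rose in WT cells from 0.161 CPM in ESCs to 5.18 CPM in NPCs (log2 difference 4.998 ± 0.57, edgeR adjusted p = 2.21e-07) and 8.69 CPM in PSA-NCAM+ cells, where replicate 1 held 18.2 CPM and the others 3.58 and 4.27 CPM. Cacna1g, a T-type calcium channel, rose in slow/slow cells from 0.276 to 14.4 CPM in NPCs and 19.3 CPM in PSA-NCAM+ cells, a log2 difference of 5.71 ± 0.28 at the first of these (edgeR adjusted p = 8.02e-13). The sodium channel gene Scn7a had 0 counts in WT ESCs and was at least 5.76-fold higher in WT NPCs and at least 12.6-fold higher in WT PSA-NCAM+ cells, and Kcna4 was at least 3.17-fold higher in WT NPCs. Kcnj8, the inward rectifier of ATP-sensitive channels in vessels, had 1 count in WT ESCs and 153 in WT PSA-NCAM+ cells, a ratio of 120 (exact 95% counting interval 21.2 to 4770). The EAG family gene Kcnh5 had 0 counts in slow/slow ESCs and was at least 9.42-fold higher in slow/slow NPCs. Some genes dipped at the progenitor stage before they rose. Scn3a fell in WT from 7.40 CPM in ESCs to 0.390 CPM in NPCs (log2 difference -4.26 ± 0.38, edgeR adjusted p = 7.34e-09), and Kcnd3, an A-type channel, fell from 2.84 to 0.147 CPM. Kcna2 fell from 0.214 to 0.0390 CPM in the same contrast. The Kir2 rectifier Kcnj12 had 14.2 CPM in WT ESCs, 4.30 CPM in WT NPCs and 1.73 CPM in WT PSA-NCAM+ cells. In slow/slow cells Kcns3, Kcnh3 and Kcnj12 led the falls in NPCs, and Kcnh3, Cacna1s and Scn3a led those in PSA-NCAM+ cells, where Scn3a was at 1.83 CPM after 14.5 CPM in ESCs.

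Levels were ordered between genes on the RPKM scale, which corrects for length, with the authors' mean values. In WT neurons the highest members were Cacng4 at 67.6, Cacnb3 at 60.9, Cacng7 at 55.7 and Scn3b at 50.05 RPKM. Accessory subunits thus filled the first 4 places. The slow/slow neurons had 37.1, 47.3, 48.6 and 36.1 RPKM for the same genes. In WT ESCs Kcnk5 led at 18.7 RPKM, followed by Cacnb3 at 16.3 RPKM. These means carry no error, so neighbours in the order could not be compared with their spread.

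In neurons, slow/slow cells had lower levels of most of the channel genes. Of the 107 members, 59 were lower and 16 higher than in WT neurons (edgeR quasi-likelihood test, FDR under 0.05), which is 55.1% and 15.0% of the members, against 28.4% of all 16627 genes that were lower and 23.4% that were higher. The median log2 difference was -0.688 over the members and -0.055 over all genes. The lower genes included the main pore subunits of axons, the calcium channels of nerve terminals, A-type and Kv3 potassium channels and Hcn genes. Of the 9 members that reached 1 CPM in 1 group only, 4 were higher and 4 lower in slow/slow neurons. With upper-quartile scaling in place of TMM the median of all genes moved from -0.055 to 0.0846, and 52 members were lower and 19 higher. Without the PSA-NCAM+ samples in the model, 68 were lower and 24 higher. The shares of all genes called in these other fits are not given here.

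**Figure D2:**
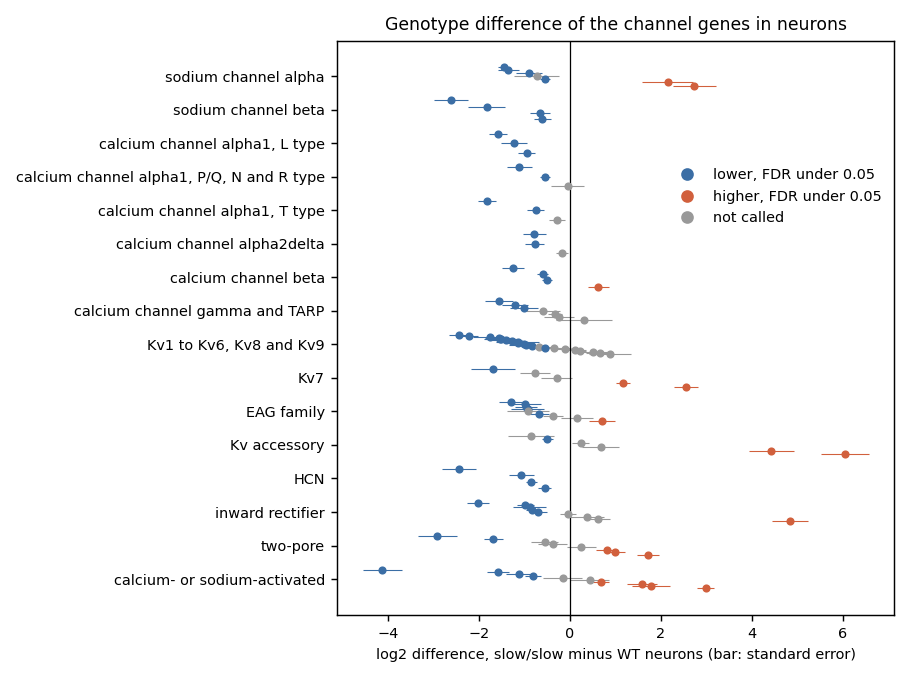
Log2 difference between slow/slow and WT neurons (horizontal axis, bar: SE) of the 107 channel genes, 1 point per gene, in rows by class, coloured by the call at FDR under 0.05. Points left of the line are lower in slow/slow neurons, where 59 genes were called, and 16 were called to the right of it.

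Among the sodium channel alpha subunits, 4 of 7 were lower, 2 higher and 1 was not called. Scn2a (Scn2a1 in the files), the channel of early axon initial segments, had 86.4, 76.2 and 77.9 CPM in WT against 32.0, 29.2 and 27.2 CPM in slow/slow neurons, a log2 difference of -1.44 ± 0.14 (edgeR adjusted p = 3.78e-08). Scn3a, the fetal brain channel, had 96.7, 85.8 and 88.9 CPM in WT against 51.1, 49.0 and 45.8 CPM in slow/slow neurons (-0.90 ± 0.29, edgeR adjusted p = 0.0131). The genotypes did not overlap for either gene, nor for Scn8a, the channel of mature nodes, which was lower by a smaller step (-0.55 ± 0.12). Scn1a, a gene of Dravet syndrome, had 8.15, 7.56 and 7.25 CPM against 5.26, 4.57 and 3.97 CPM but was not called (-0.73 ± 0.50, edgeR adjusted p = 0.228). The direction was opposite for Scn9a, the channel of peripheral pain neurons, at 1.84, 2.17 and 2.08 CPM in WT against 14.4, 14.3 and 11.9 CPM in slow/slow neurons (2.74 ± 0.47, edgeR adjusted p = 6.01e-05). Scn7a, a sodium-sensing channel of glia and peripheral nerve, was higher too, at 0.338, 0.337 and 0.327 CPM against 1.49, 1.56 and 1.40 CPM (2.15 ± 0.56). It reached 1 CPM in slow/slow neurons only, so that its higher level there had to appear and is a description.

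Sodium channel beta subunits, which anchor and tune the alpha subunits, were lower in slow/slow neurons as well. Scn4b, the subunit of resurgent current, had 1.03, 1.04 and 1.35 CPM in WT against 0.238, 0.149 and 0.164 CPM in slow/slow neurons (-2.62 ± 0.38), and the groups did not overlap. Scn3b and Scn2b, with the most counts in the class, were lower by -0.61 ± 0.19 and -0.65 ± 0.22 on the log2 scale.

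Of the 9 calcium channel alpha1 genes, 7 were lower and 2 were not called. The N-type gene Cacna1b, which triggers transmitter release, had 102, 97.4 and 98.6 CPM in WT against 45.6, 47.0 and 45.0 CPM in slow/slow neurons (-1.11 ± 0.27, edgeR adjusted p = 0.00185). The P/Q-type gene Cacna1a was at 62.9, 56.4 and 58.3 CPM against 41.9, 39.97 and 39.99 CPM (-0.54 ± 0.10, edgeR adjusted p = 0.000208). The 3 L-type genes were lower, with Cacna1c at -0.95 ± 0.19, Cacna1d at -1.23 ± 0.29 and Cacna1s at -1.58 ± 0.20. Cacna1c and Cacna1d, as well as Cacna1h, overlap a coding gene on the other strand, and the sources used here do not say if reads were counted by strand. Of the T-type genes, Cacna1i was at 24.4, 22.2 and 22.4 CPM against 5.93, 6.80 and 6.83 CPM (-1.82 ± 0.21), and Cacna1g was lower by a smaller step (-0.75 ± 0.19). Cacna1h was not called at 114, 104 and 106 CPM against 90.2, 88.2 and 86.3 CPM (-0.29 ± 0.17), nor was the R-type gene Cacna1e, whose groups overlapped (-0.04 ± 0.36).

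The accessory calcium channel subunits leaned the same way, with 8 lower, 1 higher and 5 not called of 14. Cacna2d2 and Cacna2d3, of which the second overlaps a coding gene on the other strand, were lower (-0.78 ± 0.21 and -0.79 ± 0.25), while Cacna2d1, the gabapentin-binding subunit, had a difference of -0.17 ± 0.14 and was not called. The Cacnb subunits bring the pore to the membrane. Cacnb3 had 178, 162 and 167 CPM in WT against 116, 119 and 124 CPM in slow/slow neurons (-0.50 ± 0.11), and Cacnb1 and Cacnb2 were lower by -0.60 ± 0.13 and -1.25 ± 0.23. Cacnb4 was higher in slow/slow neurons, at 9.24, 9.71 and 8.67 CPM against 14.5, 14.4 and 13.8 CPM (0.63 ± 0.22, edgeR adjusted p = 0.0236). Among the Cacng genes, most of which traffic AMPA receptors rather than calcium channels, Cacng4 had 240, 224 and 221 CPM in WT against 110, 115 and 117 CPM in slow/slow neurons (-0.999 ± 0.31, edgeR adjusted p = 0.0106). Cacng2 was lower by -1.55 ± 0.30 and Cacng8 by -1.20 ± 0.28, and Cacng7, at -0.33 ± 0.16, was not called.

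The Kv1 to Kv6, Kv8 and Kv9 genes held 14 lower members and 8 that were not called among 22. Kcnd2, which carries the A-type current of dendrites, had 36.0, 33.5 and 32.2 CPM in WT against 7.60, 6.81 and 7.65 CPM in slow/slow neurons (-2.21 ± 0.19, edgeR adjusted p = 1.20e-08). Kcnc4, a fast Kv3 channel, had 8.53, 8.47 and 8.01 CPM against 1.71, 1.54 and 1.37 CPM (-2.43 ± 0.22, edgeR adjusted p = 2.23e-08). Its relative Kcnc1 was lower as well (-1.56 ± 0.31), and Kcnc2 was not called (0.65 ± 0.29). Kcna1, the Kv1 channel of axons, had 14.9, 13.8 and 14.0 CPM in WT against 4.62, 4.13 and 3.81 CPM in slow/slow neurons (-1.76 ± 0.36). The 8 genes without a call were Kcna5, Kcna7, Kcnc2, Kcnd1, Kcng1, Kcng3, Kcns3 and Kcnv1, of which Kcnd1, Kcng1, Kcng3 and Kcns3 overlapped between genotypes.

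The Kv7 and EAG families were mixed. In the Kv7 family Kcnq5 was lower (-1.68 ± 0.48). Kcnq1, the Kv7 channel of heart and epithelia, was higher, at 0.276, 0.369 and 0.279 CPM in WT against 1.65, 1.92 and 1.84 CPM in slow/slow neurons (2.55 ± 0.26). In the EAG family 5 of 9 rows were lower, among them Kcnh7 (-0.93 ± 0.37) and Kcnh5 (-1.30 ± 0.26), Kcnh4 was higher (0.71 ± 0.29), and Kcnh2 (hERG) was not called (-0.36 ± 0.22). Kcnh1, Kcnh3 and Kcnh7 overlap a coding gene on the other strand.

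Hcn genes, whose channels carry the pacemaker current, were lower in slow/slow neurons. Hcn4 had 44.3, 41.6 and 43.8 CPM in WT against 21.7, 24.7 and 25.7 CPM in slow/slow neurons (-0.85 ± 0.12, edgeR adjusted p = 6.56e-06). Hcn2 and Hcn3 were lower by -1.06 ± 0.28 and -0.55 ± 0.14, and Hcn3 overlaps a coding gene on the other strand.

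Inward rectifier and two-pore genes, which set the resting potential, moved both ways. Of 9 inward rectifiers 5 were lower and 1 higher. Kcnj14 had 1.96, 2.12 and 2.11 CPM in WT against 0.432, 0.598 and 0.493 CPM in slow/slow neurons (-2.01 ± 0.25), and the G protein-gated Kcnj3 and Kcnj9 were lower (-0.70 ± 0.20 and -0.89 ± 0.36). Kcnj8 was higher, at 0.184, 0.241 and 0.385 CPM against 7.25, 7.87 and 8.85 CPM (4.84 ± 0.40, edgeR adjusted p = 7.73e-09), while its close relative Kcnj11 overlapped between genotypes (-0.04 ± 0.17). Of 8 two-pore genes 2 were lower, Kcnk9 at 28.7, 27.9 and 25.2 CPM against 3.41, 3.45 and 4.06 CPM (-2.91 ± 0.43, edgeR adjusted p = 1.93e-05) and Kcnk3 at 20.4, 19.0 and 17.3 CPM against 5.12, 5.88 and 6.69 CPM (-1.68 ± 0.21). These 2 genes encode acid-sensitive channels of the TASK group, while the acid-sensitive Kcnk5 was higher in slow/slow neurons (log2 difference 0.993). The 3 higher ones were Kcnk2, Kcnk5 and Kcnk6, with Kcnk2 (TREK-1) at 1.93, 1.88 and 2.60 CPM against 7.21, 6.96 and 6.96 CPM (1.72 ± 0.24).

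The calcium- or sodium-activated class was split into 4 lower, 4 higher and 2 not called. Kcnmb4, the neuronal beta subunit of BK channels, had 24.8, 25.8 and 24.4 CPM in WT against 7.64, 8.39 and 9.21 CPM in slow/slow neurons (-1.57 ± 0.24), and the smooth muscle beta subunit Kcnmb1, which overlaps Kcnip1 on the other strand, had 1.03, 0.995 and 1.46 CPM against 0.0894, 0.0498 and 0.0548 CPM (-4.12 ± 0.43), which describes a gene that reached 1 CPM in WT neurons only. Kcnn1 (SK1), which gives the after-hyperpolarisation, went the other way, from 7.47, 7.19 and 7.24 CPM in WT to 54.3, 58.9 and 59.6 CPM in slow/slow neurons, 7.89-fold higher (2.98 ± 0.18, edgeR adjusted p = 1.44e-10). Kcnn2 was higher by less (0.68 ± 0.18) and Kcnn3 was lower (-1.12 ± 0.28), so that the 3 SK genes of neurons did not share a direction. Kcnmb2 and Kcnu1 were higher (1.77 ± 0.42 and 1.59 ± 0.34) and Kcnt2 was lower (-0.81 ± 0.17). Kcnmb2 reached 1 CPM in slow/slow neurons only, so that its higher level there had to appear.

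Among the Kv accessory genes, Kcne3 and Kcne4 reached 1 CPM in slow/slow neurons only, so that a higher level there had to appear and their differences are a description. Kcne3, a subunit of Kcnq1 channels in epithelia, had 0.0460, 0.0481 and 0.0192 CPM in WT against 2.73, 1.80 and 2.90 CPM in slow/slow neurons (log2 difference 6.05 ± 0.52). Kcne4, another Kcne subunit, had 0.153, 0.0963 and 0.164 CPM against 3.35, 2.74 and 3.04 CPM (4.42 ± 0.49). Kcnab2, a Kv beta subunit, was lower (-0.50 ± 0.12) and overlaps a coding gene on the other strand, and Kcnab3 was not called (0.24 ± 0.19).

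**Figure D3:**
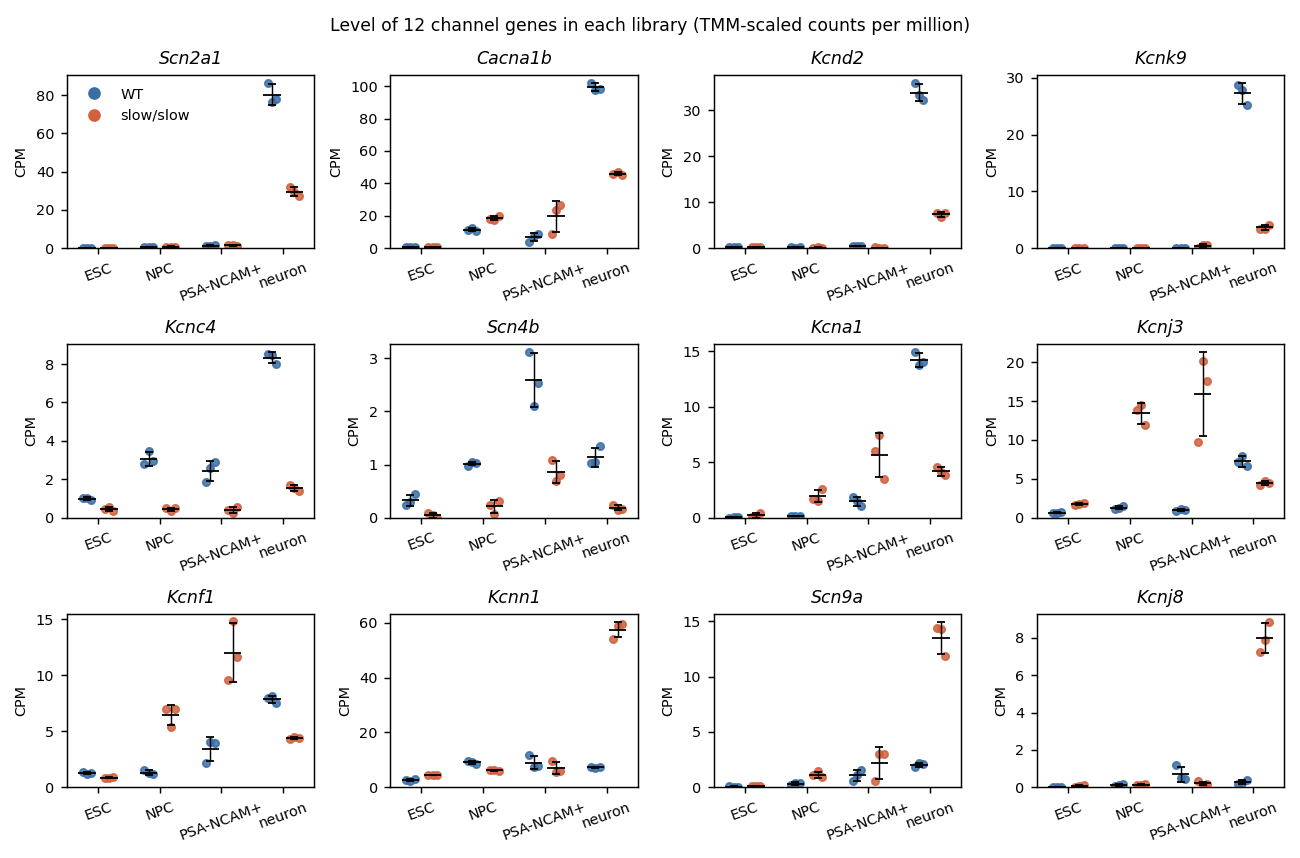
Level of 12 channel genes (TMM-scaled CPM, vertical axes that differ between panels) by stage and genotype, with 1 point per library and the mean and SD of the 3 replicates as bars. Scn2a1, Cacna1b, Kcnd2, Kcnk9, Kcnc4 and Scn4b lie lower in slow/slow than in WT neurons, Kcnn1, Scn9a and Kcnj8 lie higher, and Kcna1, Kcnj3 and Kcnf1 lie higher in slow/slow NPCs and lower in slow/slow neurons.

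Markers of the cultured cell types moved with genotype in the neuron samples, where 28.4% of all genes were lower and 23.4% higher in slow/slow cells. Of 6 neuron markers with counts 5 were lower in slow/slow neurons, and their sum was 2764 to 3080 CPM in WT and 1671 to 1749 CPM in slow/slow samples, with a median log2 difference of -1.335. The 4 mesenchyme markers were higher (sums of 209.5 to 265.1 CPM against 529.7 to 558.1 CPM), as were the 3 endothelial markers (9.81 to 12.8 CPM against 95.5 to 119 CPM), both progenitor markers with counts (246.6 to 296 CPM against 415.3 to 470.2 CPM) and the 3 markers of dividing cells (333.2 to 425 CPM against 598.9 to 667.6 CPM). The endothelial genes Cdh5 and Pecam1 had means of 2.80 and 1.55 CPM in WT against 70.5 and 24.4 CPM in slow/slow neurons. Of the smooth muscle and pericyte markers 2 were higher and 2 lower, with Acta2 at 52.4 CPM in WT against 11.2 CPM in slow/slow neurons. Of the astrocyte and radial glia markers 1 was higher and 3 lower of 7, of the oligodendrocyte lineage 3 were higher and 2 lower of 6, of endoderm 4 were higher and 1 lower of 6, of cardiac and skeletal muscle 4 were higher and 1 lower of 7, of the pluripotent list 3 were higher and 1 lower of 5, and of microglia and blood 1 was higher of 3. The part of these shifts in the channel differences was not tested.

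In NPCs the channel genes went both ways. In slow/slow cells 27 members were higher and 33 lower (25.2% and 30.8% of the members, 29.3% and 27.4% of all genes), with a median log2 difference of -0.003 over the members and 0.007 over all genes. Several potassium channel genes that WT cells express later were higher in slow/slow NPCs. Kcnj3 (GIRK1) had 1.08, 1.27 and 1.47 CPM in WT against 13.8, 14.6 and 11.9 CPM in slow/slow NPCs (3.39 ± 0.22, edgeR adjusted p = 3.05e-10). Its partner Kcnj9 (GIRK3) was at 0.125, 0.121 and 0.0750 CPM against 1.13, 0.907 and 0.739 CPM (3.12 ± 0.47). Kcna1 had 0.187, 0.181 and 0.150 CPM against 1.72, 1.53 and 2.56 CPM (3.47 ± 0.46, edgeR adjusted p = 3.71e-06), and the silent subunit Kcnf1 had 1.52, 1.24 and 1.14 CPM against 7.00, 5.37 and 6.95 CPM (2.31 ± 0.21). Levels were low for Kcnv1, which had 0 counts in WT and was at least 4.53-fold higher, for Kcnk10, with a ratio of 6.04 (exact 95% counting interval 1.73 to 32.4), and for both Kcnh8 rows. Without WT replicate 2, WT replicate 3 or slow/slow replicate 3, Kcnk10 lost its call (edgeR adjusted p of 0.0609, 0.0614 and 0.0519). Without WT replicate 2 or 3 the log2 difference of Kcnh8 (ENSMUSG00000073383) moved from 3.56 to 4.16 and 2.95, and without WT replicate 2 that of the other row moved from 2.52 to 3.39.

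The falls in NPCs included potassium, sodium and calcium channel genes. Kcnc4 had 2.79, 3.47 and 2.94 CPM in WT against 0.492, 0.358 and 0.493 CPM in slow/slow NPCs (-2.76 ± 0.24, edgeR adjusted p = 1.55e-08). Kcnh1 (EAG1) had 5.14, 5.64 and 4.84 CPM against 1.32, 0.979 and 0.887 CPM (-2.27 ± 0.25), and Kcnq1 had 1.52, 1.93 and 2.00 CPM against 0.388, 0.453 and 0.296 CPM (-2.25 ± 0.26). These 3 genes did not overlap between genotypes. Scn4b, Kcnu1 and Cacna1d were lower by -2.23 ± 0.38, -2.15 ± 0.39 and -1.92 ± 0.33. Neuron markers were higher in slow/slow NPCs, with 4 of 6 called. They summed to 66.7 to 75.7 CPM in WT against 146.1 to 169.2 CPM. Stmn2 held most of these sums, with a WT mean of 64.9 CPM and a slow/slow mean of 147.5 CPM. In ESCs the sums were larger still, from 162.6 to 195.8 CPM for WT libraries and from 199.3 to 235.7 CPM for slow/slow libraries. The sums alone thus do not measure neuronal content. Pluripotency markers were lower in slow/slow NPCs, with 4 of 5 called and sums of 1887 to 1961 CPM against 1114 to 1232 CPM. The part of both marker lists in the channel differences was not tested.

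In PSA-NCAM+ cells 34 members were higher and 33 lower in slow/slow cells (31.8% and 30.8% of the members, 28.6% and 28.1% of all genes), with a median log2 difference of 0.22 over the members and -0.007 over all genes. Kcnj3 was again higher, at 0.868, 1.13 and 0.977 CPM in WT against 9.80, 20.2 and 17.6 CPM in slow/slow cells (4.01 ± 0.22, edgeR adjusted p = 3.67e-11). Kcnj2 (Kir2.1) was at 1.90, 0.817 and 0.668 CPM against 10.5, 6.61 and 3.996 CPM (2.61 ± 0.39), and 3.24 without WT replicate 1. The Kcnh8 row ENSMUSG00000035580 had 3 counts in WT and 167 in slow/slow cells, a ratio of 47.3 (exact 95% counting interval 15.9 to 232), and its log2 difference of 5.27 was 4.56 without WT replicate 1, 6.18 without WT replicate 3 and 4.66 without slow/slow replicate 3. That of the other row was 3.82, and 5.04 without WT replicate 3. Kcnk9, Kcnv1, Kcnk10 and Kcnh5 were higher at levels below 1 CPM, with log2 differences of 3.73 ± 0.75, 3.09 ± 0.70, 2.36 ± 0.51 and 2.34 ± 0.41, and Kcnv1 overlapped between genotypes. Without WT replicate 1 the fitted value of Kcnk9 was 7.67, since the other 2 WT libraries held 0 counts, and without slow/slow replicate 3 that of Kcnk10 was 1.72.

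Kcnc4 was among the 8 largest falls of PSA-NCAM+ cells as of NPCs. Kcnd2 had 0.405, 0.467 and 0.554 CPM in WT against 0.143, 0.0427 and 0.0655 CPM in slow/slow cells (-2.63 ± 0.29, edgeR adjusted p = 3.49e-07). Kcnc4 had 1.87, 2.61 and 2.88 CPM against 0.408, 0.267 and 0.568 CPM (-2.56 ± 0.23). Kcnt1 had 18.2, 3.58 and 4.27 CPM against 1.08, 2.62 and 2.54 CPM, and its log2 difference of -2.05 ± 0.44 was -0.894 without WT replicate 1. Kcnj8 moved from -1.91 ± 0.41 to -1.30 without WT replicate 1. Scn7a, whose groups overlapped, lost its call without WT replicate 3 or slow/slow replicate 2 (edgeR adjusted p of 0.0997 and 0.0816), and Kcng3 was lower by -1.93 ± 0.32. When replicate 1 of both genotypes was left out, a choice made after seeing the data, 42 members were higher and 39 lower, 64 of them shared with the 67 above. When the 6 libraries were compared on their own, 13 were higher and 16 lower. The shares of all genes called in these other fits are not given here. Neuron markers were higher in slow/slow PSA-NCAM+ cells, with 6 of 6 called. They summed to 56.9 to 70.8 CPM in WT against 180.8 to 315.9 CPM. Stmn2 held most of these sums, with a WT mean of 51.8 CPM and a slow/slow mean of 229 CPM. Pluripotency markers summed to more, from 1295 to 1779 CPM in WT against 678.2 to 705 CPM, with 3 of 5 called lower. Both progenitor markers were higher (sums of 66.76 to 99.02 CPM against 251.5 to 320.2 CPM). Of 3 endothelial markers 2 were lower (sums of 54.29 to 58.79 CPM against 13.59 to 18.78 CPM). Further marker lists are not given here, and the part of these shifts in the channel differences was not tested.

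In ESCs fewer channel genes differed, with 15 higher and 26 lower in slow/slow cells (14.0% and 24.3% of the members, 18.5% and 21.9% of all genes) and a median log2 difference of -0.131 over the members and -0.022 over all genes. Cacna1s had 3.33, 2.32 and 3.11 CPM in WT against 12.9, 12.6 and 13.6 CPM in slow/slow ESCs (2.15 ± 0.18, edgeR adjusted p = 1.26e-08). Kcnk1 (TWIK-1) had 2.64, 3.13 and 3.05 CPM against 10.9, 11.2 and 10.6 CPM (1.90 ± 0.32), and Kcnj3 and Kcns3 were higher by 1.45 ± 0.23 and 1.10 ± 0.21. The lower genes included accessory calcium channel subunits and A-type channels. Kcnd3 had 2.84, 3.36 and 2.34 CPM in WT against 0.430, 0.327 and 0.248 CPM in slow/slow ESCs (-3.05 ± 0.41, edgeR adjusted p = 7.23e-06). Kcnh1 had 1.41, 1.38 and 1.08 CPM against 0.181, 0.245 and 0.310 CPM (-2.41 ± 0.31), and Cacng5 had 2.67, 1.86 and 2.84 CPM against 0.746, 0.409 and 0.557 CPM (-2.11 ± 0.42). Scn3b, Cacna2d1, Cacng8 and Scn4b were lower by -1.73 ± 0.25, -1.58 ± 0.16, -2.02 ± 0.38 and -2.73 ± 0.56, of which Cacng8 and Scn4b were -2.63 and -3.63 without slow/slow replicate 1.

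For 4 genes below 1 CPM in ESCs, Kcnh8 (ENSMUSG00000073383), Kcna1, Kcna2 and Kcnk2, the call was lost without 1 library. Kcnh8 (ENSMUSG00000073383) had 0 counts in WT and 12 in slow/slow ESCs, at least 4.99-fold higher, and lost its call without WT replicate 1 or slow/slow replicate 3 (edgeR adjusted p of 0.0554 and 0.0517). The other Kcnh8 row had 1 and 12 counts, a ratio of 15.0 (exact 95% counting interval 2.21 to 639), and kept its call without any 1 library, at a log2 difference of 3.56 that was 5.61 without WT replicate 1. Kcna1 had log2 differences of 2.09 with the 6 libraries, 1.37 without WT replicate 1, 3.18 without WT replicate 3 and 1.07 without slow/slow replicate 3, and lost its call without WT replicate 1, WT replicate 2 or slow/slow replicate 3. Kcna2, at -2.74 ± 0.94, was -2.06 without WT replicate 1 and -2.13 without slow/slow replicate 1 and lost its call without either, or without slow/slow replicate 2. Kcnk2, at 1.41 ± 0.48 (edgeR adjusted p = 0.0455), lost its call without WT replicate 1, WT replicate 2 or slow/slow replicate 3, with edgeR adjusted p of 0.124, 0.102 and 0.311.

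Members called in NPCs were mostly lower in slow/slow neurons, whichever their direction in NPCs. Of the 27 members higher in slow/slow NPCs, 17 were lower, 4 higher and 6 not called in neurons, and of the 33 lower ones 21 were lower, 4 higher and 8 not called, while 55.1% of all members were lower in neurons. From PSA-NCAM+ cells the counts were alike, with 22 of 34 higher genes and 18 of 33 lower genes that were lower in neurons. Between NPCs and PSA-NCAM+ cells, in contrast, 20 of the 27 higher genes were higher again and 23 of the 33 lower genes lower again. The like counts over all genes are not given here, so these patterns cannot be called particular to the channel genes. The test of the difference itself found a genotype effect that differed between neurons and NPCs for 61 members, more positive in neurons for 21 and more negative for 40 (24.7% and 30.4% of all genes). Against ESCs it differed for 43, with 17 more positive and 26 more negative (20.5% and 21.6% of all genes). The neuron samples are shared by these tests. Kcna1 had the most negative difference between neurons and NPCs (-5.24 ± 0.59 on the log2 scale, edgeR adjusted p = 4.48e-07), since it was higher in slow/slow NPCs and lower in slow/slow neurons. Kcnq1 was the reverse case, with a difference of 4.80 ± 0.37 (edgeR adjusted p = 3.50e-09).

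**Figure D4:**
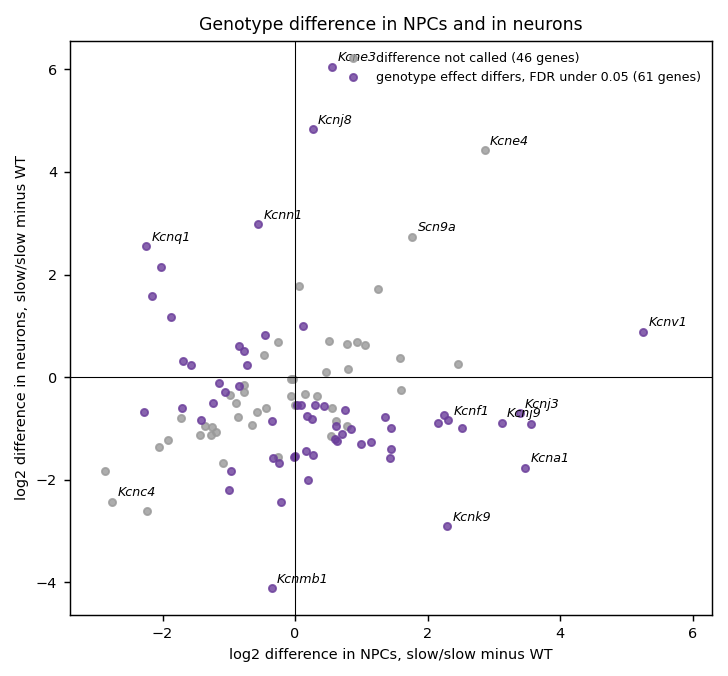
Log2 difference between slow/slow and WT cells in NPCs (horizontal axis) and in neurons (vertical axis), 1 point per channel gene, in purple for the 61 genes whose 2 differences differ at FDR under 0.05 and in grey for the others. Of the 27 genes called higher in slow/slow NPCs, 17 were called lower in neurons, among them Kcna1, Kcnj3 and Kcnf1. Of the 33 genes called lower in slow/slow NPCs, 21 were called lower in neurons.

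Some genes kept 1 direction through the 4 stages. Cacna1i, Cacnb3, Kcnc4, Kcnh1, Kcnj4, Kcnn3, Scn3b and Scn4b were lower in slow/slow cells at each stage, and Kcnk2 and Kcnn2 were higher. The ESC call of Kcnk2 was lost in 6 of 14 alternative fits. Of all members, 10 were called at no stage and 20 at all 4. In the order of ESCs, NPCs, PSA-NCAM+ cells, neurons, Kcnc4 had log2 differences of -1.11 ± 0.25, -2.76 ± 0.24, -2.56 ± 0.23 and -2.43 ± 0.22. Cacnb3 had -1.10 ± 0.11, -1.24 ± 0.11, -1.0 ± 0.11 and -0.50 ± 0.11, and its smallest difference was in neurons. Kcnj4 had -1.31 ± 0.14, -1.43 ± 0.14, -1.03 ± 0.13 and -0.83 ± 0.14. Cacnb3, Kcnj4 and Cacna1i lie on chromosome 15, where the median of all genes was -0.6, -0.572, -0.563 and -0.08 in the same order. On chromosome 8 the median of all genes was 0.446, 0.486, 0.457 and 0.437, and 4 members lie there, namely Kcnn1, Cacna1a, Kcnk1 and Kcnu1. The medians of the 10 members on chromosome 15 were 0.358, -0.512, 0.881 and -0.894, and the part of the chromosomes in the channel differences was not tested. Of the chromosome 15 members, Kcnk9 and Cacng2 are among the lower genes of neurons above.

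A list of channel partners leaned lower in neurons as well. It holds genes that anchor channels or share their complexes, the pore genes Kcnma1 and Nalcn, and the repressor Rest. Of 23 genes with counts 12 were lower and 1 higher in slow/slow neurons (28.4% and 23.4% of all genes), with a median log2 difference of -0.508. Ank2 and Ank3, the ankyrins of axons, had means of 184 and 170 CPM in WT against 90.9 and 129.5 CPM in slow/slow neurons (-1.02 ± 0.09 and -0.40 ± 0.07). Kcnma1, the pore of BK channels, had 16.01 CPM in WT against 3.98 CPM in slow/slow neurons (-2.01 ± 0.30, edgeR adjusted p = 1.25e-05). The sodium leak channel Nalcn and its partners Unc79 and Unc80 were lower together (-1.63 ± 0.28, -1.17 ± 0.34 and -1.29 ± 0.32), as were the Kv4 partners Dpp10, Dpp6 and Kcnip2 (-1.69 ± 0.27, -0.86 ± 0.18 and -0.63 ± 0.21), Cntnap2 (-1.15 ± 0.18), Fgf12 (-1.53 ± 0.26) and the Kv2 partner Amigo1 (-0.29 ± 0.12). Kcnip4 was higher (1.23 ± 0.23). Rest, the repressor of neuronal genes, had 41.6 CPM in WT against 45.8 CPM in slow/slow neurons and was not called (0.14 ± 0.10, edgeR adjusted p = 0.231). In NPCs 11 partners were higher and 5 lower (29.3% and 27.4% of all genes). In PSA-NCAM+ cells 16 were higher and 2 lower (28.6% and 28.1%), and in ESCs 2 were higher and 6 lower (18.5% and 21.9%). Ligand-gated channel genes showed like counts in neurons, with 12 of 19 ionotropic glutamate receptor genes lower and 2 higher (median -0.908) and 8 of 12 GABA-A receptor genes lower and 2 higher (median -1.401). In NPCs 8 of the 12 GABA-A receptor genes were higher and 0 lower, while 2 of the 19 glutamate receptor genes were higher and 8 lower.

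The lower levels in neurons were found among short and long channel genes alike. The 105 members placed in the annotation (GENCODE, GRCm38) had a median genomic span of 48.6 kb, from 1.54 to 816.9 kb, against 24.7 kb for all genes at the same level. In neurons 29 of 53 members under 50 kb were lower (54.7%), 12 of 22 between 50 and 150 kb (54.5%) and 18 of 30 over 150 kb (60.0%), with median log2 differences of -0.65, -0.649 and -0.718. Over all genes the lower share grew with span, from 24.9% to 34.9% and 46.3%, with medians of -0.012, -0.125 and -0.368. Across genes, which are not replicates, log10 span and log2 difference had a Pearson r of -0.09 and a Spearman rho of -0.02 over the 105 members and -0.12 and -0.12 over all 16312 genes. In NPCs the share of lower members was 34.0%, 36.4% and 23.3% in the 3 classes, and in PSA-NCAM+ cells 35.8%, 36.4% and 20%.

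Splicing of the channel genes was compared at each stage. Inclusion was read as the percent spliced in (PSI), the share of reads that support an exon or a retained intron, and an event was called where the mean PSI differed by over 10 points with a posterior probability over 0.95 for its sign. In neurons 5 of 82 exons of members were called (3.55% of all exons tested) and 2 of 357 introns (0.261%). In NPCs 1 of 18 exons (2.93%) and 2 of 82 introns (0.318%) were called, and in ESCs 1 of 13 exons (0.809%). In ESCs 0 of 51 introns (0.0529%) and in PSA-NCAM+ cells 0 of 20 exons (0.966%) and 0 of 88 introns (0.0829%) were called, and limma on the same events called 0 in each of these 3 sets, with 0 past 10 points at an unadjusted p under 0.05. The coverage behind the called events was 18 to 613 reads per sample. The number of called exons in neurons was 10 without slow/slow replicate 3, and that of called introns 5.

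Microexons of Cacna1b and Cacna1a were among the called exons. In the N-type gene Cacna1b 1 microexon was included less and another more. Its 12-base microexon (mm9 chr2:24512231-24512242) had a PSI of 95.01, 91.6 and 96.4 in WT and 83.7, 78.8 and 65.5 in slow/slow neurons, a difference of -18.3 points (posterior 0.985, limma FDR 0.024). Its 6-base microexon (mm9 chr2:24498373-24498378) had 5.74, 7.60 and 1.80 in WT and 30.6, 17.0 and 22.6 in slow/slow neurons, a difference of 18.3 points (posterior 0.993, limma FDR 0.0278). Both keep the reading frame. The 97-base exon of the same gene (mm9 chr2:24480758-24480854) was included at 82.2, 85.2 and 86.8 in WT and 73.9, 67.0 and 74.0 in slow/slow neurons (-13.1 points). A 12-base microexon of the P/Q-type gene Cacna1a (mm9 chr8:87100182-87100193) was included at 23.0, 19.5 and 21.5 in WT and 4.40, 1.99 and 3.13 in slow/slow neurons (-18.2 points, posterior 0.999, limma FDR 0.00466), and at 0 in the 3 WT libraries of NPCs and of PSA-NCAM+ cells. The genotypes did not overlap for any of these exons. Of the 10 microexons of members tested in neurons, up to 27 bases long, 3 were called, 1 more and 2 less included, and over all genes 114 of 586 were called (19.5%).

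The Kcnab2 exon of 42 bases (mm9 chr4:151808891-151808932) had a PSI of 94.9, 91.7 and 77.1 in WT and 68.2, 63.4 and 72.7 in slow/slow neurons (-19.8 points, posterior 0.957), and limma did not call it (FDR 0.146). The 20-base exon of Cacnb3 (mm9 chr15:98471390-98471409), whose length is not a multiple of 3, differed at the early stages. It was included at 89.3, 92.5 and 92.9 in WT and 74.3, 77.2 and 69.1 in slow/slow NPCs (-18.0 points, limma FDR 0.00739), and at 95.4, 94.6 and 92.9 in WT and 84.6, 81.0 and 86.7 in slow/slow ESCs (-10.2 points), where limma did not call it (FDR 0.079). In neurons it was at 97.8, 96.9 and 95.5 against 95.2, 95.1 and 96.2, a difference of -1.3 points. The 4 exons that could be placed in the transcripts are shown 5′ to 3′ as in the transcript, with the exon in capitals and 24 bases of the neighbouring exons on each side, from GENCODE transcripts on GRCm38. They are printed because the capitals are the letters whose inclusion differed.
Cacna1b 6-base microexon, minus strand, chr2:24642853-24642858: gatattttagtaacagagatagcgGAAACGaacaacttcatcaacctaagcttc
Cacna1b 12-base microexon, minus strand, chr2:24656711-24656722: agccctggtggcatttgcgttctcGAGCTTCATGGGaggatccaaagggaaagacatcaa
Cacnb3 20-base exon, plus strand, chr15:98640959-98640978: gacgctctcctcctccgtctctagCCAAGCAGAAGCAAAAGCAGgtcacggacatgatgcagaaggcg
Kcnab2 42-base exon, minus strand, chr4:152434782-152434823: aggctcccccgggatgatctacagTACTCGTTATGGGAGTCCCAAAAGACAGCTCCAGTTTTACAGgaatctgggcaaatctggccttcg

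**Figure D5:**
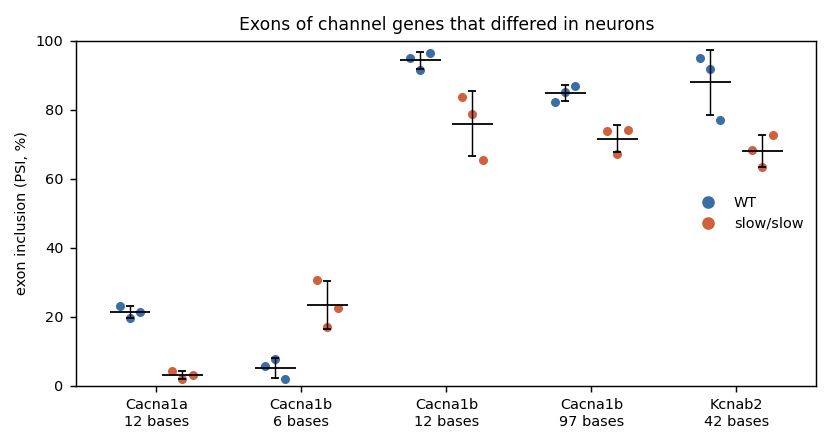
Inclusion (PSI, %, vertical axis) of the 5 exons of channel genes called in neurons, with 1 point per library, in blue for WT and red for slow/slow neurons, and the mean and SD of the 3 replicates as bars. The Cacna1a microexon lies at 19.5 to 23.0 in WT and 1.99 to 4.40 in slow/slow neurons, and the 6-base exon of Cacna1b is the exon of higher inclusion in slow/slow neurons.

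The called introns were each retained more in slow/slow cells. In NPCs a 157-base intron of Cacnb3 (mm9 chr15:98471890-98472046) had a PSI of 10.0, 14.6 and 12.4 in WT and 20.5, 20 and 28.9 in slow/slow cells (10.8 points), and without slow/slow replicate 3 the count of called introns there fell to 1. Cacnb3 also had a lower level in slow/slow NPCs. In neurons an intron of Cacna2d2 (mm9 chr9:107424515-107426425) had 3.18, 0.43 and 1.83 against 17.6, 8.57 and 9.62 (10.1 points), and an intron of Hcn3 (mm9 chr3:88955003-88955346) had 26.9, 28.9 and 24.7 against 36.4, 35.8 and 41.1 (11.0 points). The retention differences of these introns in neurons were no larger than 15 points.

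The promoters of the members were searched for the RE1 element, to which Rest binds, as its parts TTCAGCACC and GGACAGCGC on both strands and as both parts joined with up to 8 bases between them. RefSeq windows of 250 bases before to 50 after the start (GRCm38.p6) were at hand for 75 of the member genes, 101 windows in all. The first of these was found in 1 window (Kcnh6) and in 0.371% of the 32851 windows of all genes, the second in 1 window (Kcnj4) and in 0.405%, and the joined form in 0 windows of members and in 0.0122% of all windows. Only exact letters within these windows were searched. The joined form was in 4 of the 32851 windows, too few for 0 of 101 to tell the members from other genes. The stretches that hold 1 of the parts are shown with the matched letters in capitals.
Kcnh6, plus strand, window chr11:106007898-106008197: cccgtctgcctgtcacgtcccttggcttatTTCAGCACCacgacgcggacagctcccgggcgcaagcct
Kcnj4, minus strand, window chr15:79505192-79505491: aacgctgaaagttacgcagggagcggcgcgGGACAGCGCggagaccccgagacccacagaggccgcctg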

How the data were processed

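Poly(A)+ RNA of the 24 samples had been sequenced as stranded, paired-end libraries. The authors mapped reads to mm9 and processed them with vast-tools, and the submitters' processing notes name bcl2fastq 2.17.1.14 and edgeR without a version. The authors deposited raw counts per gene, whole numbers that were not normalised, and whether counting used the strand is not given in the sources used here. The deposited RPKM columns hold 1 mean per group, made by the authors, and are printed as such. The deposited inclusion levels are percent values (PSI) with the reads behind them, also from vast-tools. Columns of log2 fold changes and FDR values, which are adjusted p-values, hold the authors' own comparisons and were not used.

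Counts were tested with edgeR 4.0.16 in R 4.3.3, by the quasi-likelihood F test in 1 model of the 8 groups (16 residual degrees of freedom, common biological coefficient of variation 0.164). The steps were filterByExpr by group, which left 16627 genes and the 107 members, TMM scaling, and Benjamini-Hochberg adjustment over all genes tested, with calls at an FDR under 0.05. CPM values are TMM-scaled, and a fitted log2 difference of a gene with few counts depends on the prior count. Where a group held 0 counts a fold is a bound against 3 counts over the group, and where it held 1 to 3 counts a ratio has an exact counting interval. Intervals and floors cover counting error only. Exons and introns were compared within a stage by the vast-tools diff scheme, rebuilt from the deposited reads with a uniform prior, and again with limma 3.58.1. Introns needed 15 reads and a balance p of 0.05 in each sample. Scripts were tested on simulated data. Alternatives were other scalings and filters, DESeq2 1.42.0, the samples of a contrast alone, a replicate block, and each replicate left out.

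The labels number the replicates 1 to 3 in each group. Deviations of WT and slow/slow samples of the same number correlated at 0.58, 0.57 and 0.46 in PSA-NCAM+ cells and at 0.31 or less elsewhere. The PSA-NCAM+ samples thus looked paired in the data. The PSA-NCAM+ values given above are nevertheless from the model of the 8 groups, which has no term for the replicate. With the replicate block within the PSA-NCAM+ samples, chosen after seeing the data, 78 members were called there in place of 67.

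The members, the lists of partners and markers and the tests were chosen with earlier results of these data known. Genes are named by rule: the 8 largest called rises and falls per genotype contrast, the 2 highest members per class in WT neurons, the 3 most positive and negative interactions, members with called events, members with 1 direction at 4 stages, the 3 largest rises and falls per differentiation contrast, and the partners called in neurons. Further members complete a class and were chosen after their values were seen. The 24 rows below the filter were not analysed, and results of some members are not reported here, although the counts over the members include them.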

Additional observations from a re-analysis of the deposited data

Results flagged for a closer look

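The genotype effect on some channel genes differed between stages by a test of the difference itself, which is why these results are listed. Between neurons and ESCs the effect differed for 43 members and between neurons and NPCs for 61 members (edgeR quasi-likelihood test, FDR under 0.05). For ESCs 15.9% of members were more positive and 24.3% more negative in neurons, beside 20.5% and 21.6% of all genes. The count against ESCs thus lay near the share of all genes and is not particular to the members. For NPCs these shares were 19.6% and 37.4% of members, beside 24.7% and 30.4% of all genes. The values here are the log2 difference between slow/slow and WT cells in neurons minus that at the earlier stage.

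Against ESCs the most positive values were those of the Kcne subunits Kcne4 (8.16) and Kcne3 (6.66) and of Kcnmb2 (3.34), which were higher in slow/slow neurons. These 3 reached 1 CPM in slow/slow neurons only, so that a positive value had to appear, and the value of Kcne4 rests on 4 counts in WT ESCs and 0 in slow/slow ESCs, where it was not called. The value of Kcne3 ranged up to 9.88 without slow/slow ESC replicate 3, and Kcnmb2 was at 1.85 without WT ESC replicate 1, where it lost its call (edgeR adjusted p = 0.24). The most negative values were those of both Kcnh8 rows (-6.52 for ENSMUSG00000073383 and -4.54 for ENSMUSG00000035580) and of Kcna1 (-3.85). These genes had few counts in ESCs, as given above. Without WT ESC replicate 1 the Kcnh8 row ENSMUSG00000035580 was at -6.57, and Kcna1 was at -2.81 without slow/slow ESC replicate 3 and at -4.92 without WT ESC replicate 3.

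Against NPCs the most positive values were those of Kcne3 (5.49), Kcnq1 (4.80) and Kcnj8 (4.57), and the most negative those of Kcna1 (-5.24), Kcnk9 (-5.20) and Kcnh8 (ENSMUSG00000073383, -4.47). Kcnk9 had 2 counts in WT NPCs and 10 in slow/slow NPCs, and its value was -7.88 without WT NPC replicate 1. Kcne3, whose positive value had to appear here too, was at 4.87 and Kcnh8 (ENSMUSG00000073383) at -3.85 without WT NPC replicate 3. Kcnq1 and Kcnj8 moved by less than 1.5 times without any 1 library.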

How the results depend on the processing

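No named gene changed direction under the alternatives run. For the 76 gene results named by rule, 1169 of 1193 alternative fits kept the call and 24 lost it, and 65 of the 76 lost it in none. With a minimum change of 2-fold the counts were 27 in ESCs and 43 in neurons, and when the 6 PSA-NCAM+ libraries were compared on their own 29 members were called, with Kcnj8, Kcnk10 and Kcnt1 among those lost. With 1 replicate left out the counts were 30 to 37 in ESCs, 52 to 57 in NPCs, 62 to 79 in PSA-NCAM+ cells and 65 to 69 in neurons, and 39 to 43 and 53 to 58 for the effects that differed from ESCs and from NPCs. Among all genes called in neurons, 45.2% were higher, and 59.2% with upper-quartile scaling. Scaling on 1000 short genes, chosen after seeing the data, called 70 members in neurons (17 higher, 53 lower). Without the PSA-NCAM+ samples, chosen likewise, 52, 80 and 92 members were called in ESCs, NPCs and neurons. The share of all genes called in each alternative fit is not given, here or above. The counts of members in these fits thus do not compare the members with other genes. The replicate block in the whole model gave 40, 62, 69 and 75 calls at the 4 stages and changed no count by over 1.5 times. Splicing calls were few and moved: in ESCs 0 exons were called at 15 points, by limma, and by limma with the replicate block (2 past 10 points at an unadjusted p under 0.05 in either limma fit), in NPCs 1 intron at 15 points and 1 with at least 20 reads, and in neurons 0 introns at 15 points. With 1 replicate left out, exon counts were 0 to 2 in ESCs, 1 in NPCs, 0 to 1 in PSA-NCAM+ cells and 4 to 10 in neurons, and intron counts 0, 1 to 3, 0 to 1 and 1 to 5. The cause of these changes was not tested. Depth limits the genes below 1 CPM.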
